A study of Homo sapiens with 18 samples.

Results

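This comparison set NCI-H211 cells that carried the L191A mutant of POU2F3 against cells that carried an empty vector, both after a guide RNA had been aimed at the endogenous POU2F3 gene. NCI-H211 is an established human small cell lung cancer line that expresses POU2F3, and the cells used here also carried Cas9. The L191A libraries came from a line stably expressing a POU2F3 cDNA that CRISPR cannot cut and in which 1 leucine is replaced by alanine. The empty vector libraries came from a line with the vector alone. Both lines were infected in triplicate with a lentivirus carrying the guide sgPOU2F3 and were harvested on day 5, which gave 3 libraries in each group and 6 of the 18 libraries of the series. The same L191A and empty vector lines infected with the negative control guide sgRosa, with 3 libraries each, were used to see which differences were already present between the lines, and the line with the wild type (WT) cDNA under sgPOU2F3 is quoted where its level helps. Each line is a single stable line, so the p-values measure the spread between infections of that line and not between lines made independently. Genes were taken if they averaged at least 1 TPM, a transcript level corrected for transcript length and library size, over the 6 libraries, which kept 12836 of 19749 named genes.

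POU2F3 is the master transcription factor of tuft cells, the chemosensory cells of airway and gut epithelium. It binds octamer DNA together with a coactivator, OCA-T1 (listed as C11orf53, also POU2AF2) or OCA-T2 (listed as COLCA2, also POU2AF3). Tuft cells carry a taste-type cascade in which receptors act through a G protein, phospholipase C and the calcium-gated channel TRPM5, and they make eicosanoids from membrane lipid. Small cell lung cancers of the POU2F3 class share many of these genes.

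The 6 libraries were close in makeup but not the same. Ribosomal protein genes took 19.92% to 21.30% of TPM in L191A libraries and 15.74% to 19.87% in empty vector libraries, so every L191A library was above every empty vector library. Empty vector replicate 2, with the lowest share, also had the highest median level of the tested genes (24.5 TPM, against 19.3 to 20.8 TPM in the other 5). Depth cannot be read from TPM, so no counting error is given. In the sgRosa groups L191A replicate 1 stood apart, with 38.0% of its TPM in ribosomal protein genes and a median of 7.38 TPM, and sgRosa results leave it out unless stated. In bulk RNA, fewer cells of a kind and less RNA per cell cannot be told apart.

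Transcript GC content moved with the comparison. The log2 difference in TPM + 1, L191A minus empty vector, fell by 0.18 for each 10% of GC, and the median difference over 5 equal bins was 0.09 in the bin with the least GC and -0.27 in the bin with the most. Genes called lower had a median GC content of 57.2%, genes called higher 44.5% and all genes tested 49.6%. The slope lay between -0.21 and -0.15 when any of the 6 libraries was left out, and was 0.01 between the same lines under sgRosa. Its part in the results was not tested, and values with the GC trend removed are given where they end the call of a gene described or move a count of at least 3 called members by over 1.5 times.

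**Figure D1:**
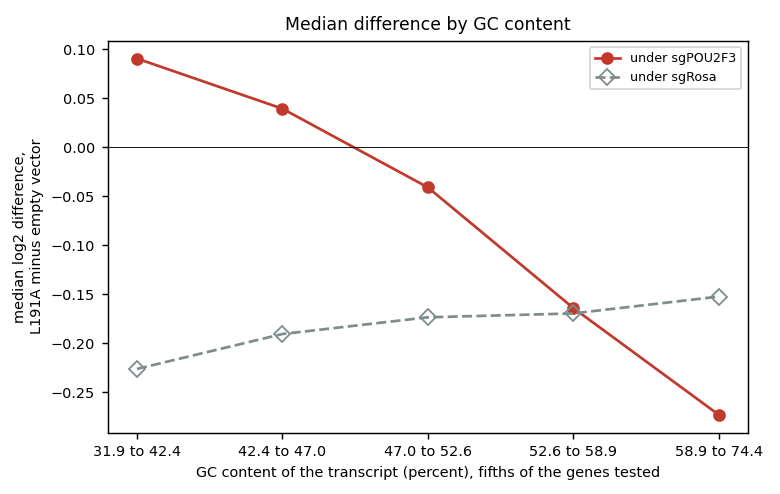
Median log2 difference of L191A minus empty vector (y axis) in 5 equal bins of the genes tested, ordered by transcript GC content in percent (x axis), under sgPOU2F3 (filled) and sgRosa (open). Under sgPOU2F3 the median falls from bin to bin, 0.09 in the lowest and -0.27 in the highest, and under sgRosa it lies between -0.23 and -0.15 in every bin.

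POU2F3 itself was measured at 621, 672 and 645 TPM in L191A libraries, against 253, 318 and 274 TPM in empty vector libraries. All 3 L191A libraries were above all 3 empty vector libraries, and the difference was 1.202 ± 0.09, adjusted p = 5.4e-05 (log2 of TPM + 1 with its SE, limma). The gene lies at chr11:120236640-120319944 on the plus strand of hg38, and all gene coordinates are from GENCODE release 29. The TPM does not separate reads of the cDNA from reads of the endogenous gene, so the level is no measure of how well the guide worked. Under sgRosa the L191A line had 142, 1053 and 831 TPM and the empty vector line 682, 654 and 853 TPM, so the empty vector line was lower under sgPOU2F3 in all 3 libraries.

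The coactivator C11orf53, at chr11:111245805-111286401, moved the other way, with 173, 176 and 161 TPM in L191A libraries, against 285, 282 and 281 TPM in empty vector libraries. The groups did not overlap and the difference was -0.73 ± 0.06, adjusted p = 0.00013. A difference of like size stood between the lines under sgRosa (-0.61), and the difference between the guides was not called (adjusted p = 0.44). In WT cDNA cells under sgPOU2F3 the gene had 470.1, 486 and 521 TPM, above both groups.

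COLCA2, nearby at chr11:111298555-111308735, had 9.73, 6.79 and 8.996 TPM in L191A libraries, against 5.42, 7.24 and 7.37 TPM in empty vector libraries. The groups overlapped and the difference of 0.30 did not pass the test (adjusted p = 0.25). POU2F1, the widely expressed relative, had 6.67 against 6.12 TPM in L191A against empty vector libraries and was not called (adjusted p = 0.65). POU2F2 and POU2AF1, the lymphoid pair of factor and coactivator, averaged under 1 TPM and were not tested.

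Of the 12836 genes, 2428 (18.9%) passed an adjusted p of 0.05. Of these, 896 (6.98%) were higher in L191A cells and 1532 (11.9%) were lower. The number called was 1046 to 1134 without any 1 L191A library, 1464 without empty vector replicate 3 and 4660 without empty vector replicate 2. Without empty vector replicate 2 the split was 2389 higher and 2271 lower, and with scaling by median ratios in place of TPM it was 1611 higher and 1635 lower, so the excess of lower genes was not found under either. A fit of all 18 libraries called 542 genes. Of the 112 called genes that were followed one by one, 28 were not among them (AMOTL2, AVIL, B2M, BBC3, BCL2, CASP8, CYR61, EHF, FOSL2, GNAT3, IGFBP3, ITGAV, ITPR3, JUN, KIT, MYB, MYC, POU2F3, PSMB9, SERPINB9, SMAD6, SUCNR1, TAS2R38, TAS2R5, TGFB1, THBS1, TWIST1 and VIM). Other genes named as called within the gene lists below were not followed singly, and some were not among the 542 either. In that fit no gene of the S phase, G2 and M phase, cholesterol synthesis or ribosomal protein lists was called. The same held for the list of MYC and ribosome biogenesis. No member of the interferon, p53 or basal lists was called higher there. Falls numbered 2 of 11 AP-1 subunits, 1 of 24 p53 targets and 15 of 26 NF-kB and inflammatory genes, and other lists lost members too. At least 2-fold differences on the TPM + 1 scale among the 2428 called genes were fewer, 184 higher (1.43%) and 256 lower (1.99%). The 3 libraries of one group did not overlap with those of the other for 1964 genes higher (15.3%) and 3511 lower (27.4%) in L191A cells. The median over all genes was -0.06. Counts within the gene lists below stand against these shares, 6.98% higher and 11.9% lower, and those under sgRosa against 8.75% and 26.1%. With 1 library left out, another scaling, the GC trend removed or all 18 libraries fitted, the number of genes called changed, so those counts have other shares.

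Many of the large differences were already present between the lines under sgRosa. Of the 184 genes at least 2-fold higher, 129 were also called higher under sgRosa and 5 lower, where 8.75% and 26.1% of all genes were called in those directions and 34.9% in either. Of the 256 genes at least 2-fold lower, 140 were also called lower under sgRosa and 21 higher. The log2 differences under the 2 guides share no library. The sgRosa calls, however, used a spread pooled over 11 libraries that include those under sgPOU2F3, so the calls are not fully independent. With L191A sgRosa replicate 1 kept, the difference between the guides was called for 292 genes in place of 2367. Without it, that difference was called for 91 of the 184 and for 130 of the 256, where 18.4% of all genes were. These genes were picked by their difference under sgPOU2F3, which is itself part of the difference between the guides. Their shares are therefore raised by the choice, and no conclusion is drawn from them.

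**Figure D2:**
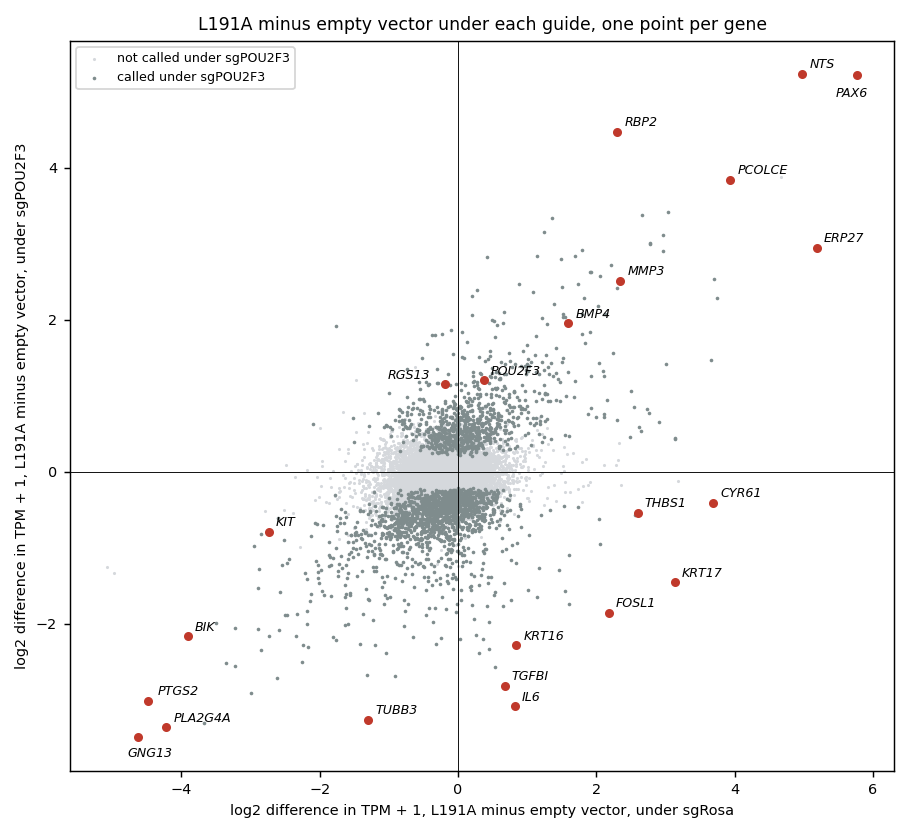
Log2 difference in TPM + 1, L191A minus empty vector, under sgPOU2F3 (y axis) and under sgRosa without L191A replicate 1 (x axis), 1 point per gene, with the called genes darker and named genes in red. NTS (5.23 and 4.98) and GNG13 (-3.49 and -4.63) lie near the diagonal, while IL6 (-3.08 and 0.82) and KRT17 (-1.46 and 3.13) are lower under sgPOU2F3 and higher under sgRosa.

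The largest rises marked the L191A line. NTS, the gut and brain peptide neurotensin, at chr12:85874295-85882992, had 262, 242 and 236 TPM in L191A libraries, against 4.99, 6.19 and 5.59 TPM in empty vector libraries (5.23 ± 0.10, adjusted p = 2.7e-08). Under sgRosa the L191A line had 219, 174 and 128 TPM and the empty vector line 4.11, 4.71 and 2.72 TPM, so the gap stood under either guide. PAX6, a homeobox factor of eye, brain and endocrine development at chr11:31784779-31818062, had 60.1, 60.4 and 58.8 TPM in L191A libraries, against 0.479, 0.573 and 0.854 TPM in empty vector libraries (5.22 ± 0.13, adjusted p = 2e-07). It was also at 47.8, 64.2 and 63.03 TPM in WT cDNA cells under sgPOU2F3, so it was high with either cDNA. PCOLCE, which helps to process procollagen, followed with 38.03 against 1.72 TPM (3.84 under sgPOU2F3 and 3.93 under sgRosa).

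PALMD, the gene of palmdelphin, had 10.6, 9.402 and 9.19 TPM in L191A libraries and was listed at 0 in all 3 empty vector libraries. STEAP2, a metalloreductase, averaged 17.7 ± 1.95 TPM in L191A and 0.825 ± 0.414 TPM in empty vector libraries (SD, n = 3 each). TMEFF2, a transmembrane protein with an EGF-like domain, stood at 12.2 against 0.644 TPM and PLPPR4, a phosphatase-related membrane protein of neurons, at 7.77 against 0.101 TPM, L191A before empty vector. Each of these 4 was also called higher in L191A cells under sgRosa, with log2 differences of 2.65 to 3.04.

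Other large rises depended on the guide. RBP2, a retinol-binding protein of the intestine, had 32.3, 26.1 and 36.6 TPM in L191A libraries, against 0.491, 0.599 and 0.286 TPM in empty vector libraries, and its rise of 4.48 under sgPOU2F3 exceeded the 2.299 under sgRosa (difference 2.18, adjusted p = 0.0048). FAM20A, which acts with a secretory-pathway kinase, rose by 3.16 and by 1.24 under sgRosa (difference 1.92, adjusted p = 0.00015). ERP27, a chaperone-type protein of the endoplasmic reticulum, went the other way, with 117 against 14.3 TPM under sgPOU2F3 (2.95) and a larger gap of 5.19 under sgRosa.

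The BMP antagonist SOSTDC1 had 56.3, 57.4 and 61.5 TPM in L191A libraries, against 4.98, 6.29 and 6.41 TPM in empty vector libraries (3.11 ± 0.12, adjusted p = 1.6e-06). Of 22 tested genes of the TGF-beta and BMP list, 7 rose and 6 fell (6.98% and 11.9% of all genes), with a median of -0.18. BMP4, a BMP ligand, had 39.7, 39.1 and 38.95 TPM in L191A libraries, against 8.64, 9.86 and 9.63 TPM in empty vector libraries (1.96 ± 0.10, adjusted p = 6.9e-06), and the BMP targets ID1 and ID3, inhibitors of helix-loop-helix factors, had 587 against 337 TPM and 192 against 107 TPM (0.80 and 0.84). The inhibitory SMAD6 also rose (0.95, adjusted p = 0.014), a call lost without empty vector replicate 3 or any L191A library. BMP4, ID1, ID3 and SMAD6 were also called higher in L191A cells under sgRosa, and the guides were not called different for any of them. On the other side, the ligand gene TGFB1 had 16.9 against 45.6 TPM (-1.34) and INHBA, the activin A subunit, 0.824 against 3.42 TPM (-1.27).

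**Figure D3:**
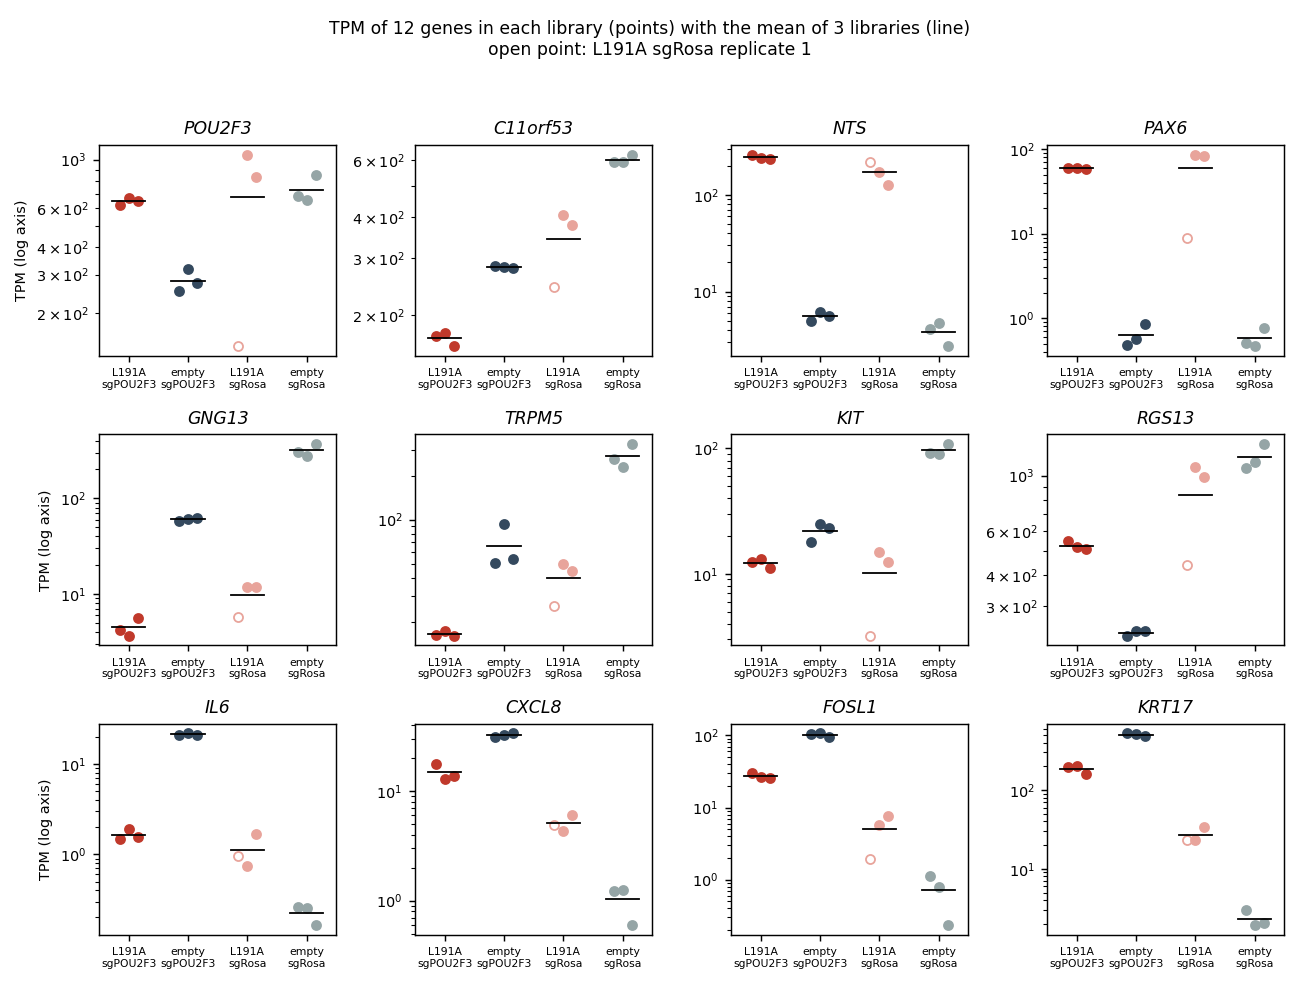
TPM of 12 genes in each library (points, log axis) in L191A and empty vector cells under sgPOU2F3 and then under sgRosa, with the mean of 3 libraries as a line and L191A sgRosa replicate 1 as an open point. NTS and PAX6 are high in L191A cells under both guides, GNG13 is low in them under both, and IL6, FOSL1 and KRT17 are highest in empty vector cells under sgPOU2F3.

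Tuft genes divided. Of 40 listed tuft markers 30 were tested, 8 rose and 14 fell (background 6.98% and 11.9%), with a median of -0.30. The largest fall of any gene named was GNG13, the gamma subunit of the taste G protein, at chr16:798041-800733, with 4.21, 3.68 and 5.56 TPM in L191A libraries, against 57.8, 60.1 and 62.8 TPM in empty vector libraries (-3.49 ± 0.14, adjusted p = 2e-06). The line difference was there under sgRosa as well, with 5.82, 11.9 and 11.7 TPM in L191A and 304, 279 and 369.6 TPM in empty vector cells. WT cDNA cells under sgPOU2F3 had 43.98, 43.5 and 63.2 TPM.

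PLCB2 and TRPM5, which act after the G protein, fell too. PLCB2, the phospholipase C of taste transduction, had 22.6, 23.3 and 20.6 TPM in L191A libraries, against 79.2, 129 and 84.8 TPM in empty vector libraries (-2.06 ± 0.17, adjusted p = 8.8e-05). TRPM5, the channel that depolarises the cell, had 16.2, 17.2 and 16.1 TPM in L191A libraries, against 50.5, 93.8 and 53.97 TPM in empty vector libraries (-1.88 ± 0.21, adjusted p = 0.00044). For both genes empty vector replicate 2 was the highest library of the 6 by a margin, and all 3 L191A libraries were below all 3 of empty vector. TAS1R3, the shared subunit of sweet and umami receptors, stood at 4.87 against 33.1 TPM (-2.51). PLCG2, a phospholipase C used by receptor kinases, had 32.5 ± 0.856 TPM in L191A and 102 ± 13.3 TPM in empty vector libraries (-1.62).

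Other members of the taste list rose. Of 23 tested, 8 rose and 6 fell, with a median of 0.17, and 5 rose without any 1 of the 3 L191A libraries. GNAT3, the alpha subunit gustducin, had 129, 134 and 131 TPM in L191A libraries, against 62.5, 83.3 and 71.6 TPM in empty vector libraries (0.85 ± 0.10, adjusted p = 0.00075). RGS21, a G protein regulator of taste cells, had 24.4, 20.4 and 20.03 TPM in L191A libraries, against 5.46, 4.42 and 4.34 TPM in empty vector libraries (1.98 ± 0.14, adjusted p = 3.8e-05), and RGS13, a related gene close by on chromosome 1, had 548, 517 and 509 TPM in L191A libraries, against 229, 238 and 239 TPM in empty vector libraries (1.16 ± 0.06, adjusted p = 8.3e-06). For these 3 the difference of L191A minus empty vector was higher under sgPOU2F3 than under sgRosa, by 0.83, 1.47 and 1.34 (adjusted p = 0.034, 0.0015 and 6.1e-05). That nearly equals the whole rise of GNAT3 (0.85) and exceeds that of RGS13 (1.16), so neither of these 2 gains stood under sgRosa. ITPR3, the calcium release channel, rose by 0.74 (adjusted p = 0.036), a call that was lost without empty vector replicate 1 or 3 or any L191A library.

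Bitter receptors were on both sides. TAS2R31 and TAS2R30 had 4.77 against 1.09 TPM and 2.72 against 0.523 TPM, rises of 1.49 and 1.29, and near-identical bitter receptor copies may share reads, so their separate levels are uncertain. TAS2R5 had 6.79, 8.04 and 7.17 TPM in L191A libraries, against 4.41, 5.24 and 4.45 TPM in empty vector libraries (0.55 ± 0.14, adjusted p = 0.024), a call lost without empty vector replicate 3 or any L191A library. TAS2R38, the receptor for thiourea bitterness and the most abundant of those named, had 47.2, 56.8 and 55.3 TPM in L191A libraries, against 71.9, 91.1 and 105 TPM in empty vector libraries (-0.73 ± 0.14, adjusted p = 0.0079). TAS2R4 was the remaining riser and the channel gene CALHM1 (-0.83) the remaining member that fell.

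The octamer stood before the starts of TAS2R5 and AZGP1. The 300 bases from 250 before to 50 after the start of each gene were read from RefSeq (GRCh38.p14), and the octamer ATGCAAAT was searched on both strands. It was in 1.45% of the windows of the tested genes that had one and in 1.80% of all 27305 windows, and a match is a description of letters, not of binding. Of the tested tuft and taste genes 34 had a window and 6 of them (17.6%) held the octamer. It was in 7 of 144 windows (4.86%) of genes at least 2-fold higher and in 6 of 163 (3.68%) of genes at least 2-fold lower. TAS2R5, which rose, is shown at chr7:141789967-141790266 on the plus strand, and AZGP1, a tuft-expressed zinc-alpha-2-glycoprotein gene that fell, at chr7:99975982-99976281 on the minus strand, each from 5′ to 3′ with the match in capitals.
TAS2R5: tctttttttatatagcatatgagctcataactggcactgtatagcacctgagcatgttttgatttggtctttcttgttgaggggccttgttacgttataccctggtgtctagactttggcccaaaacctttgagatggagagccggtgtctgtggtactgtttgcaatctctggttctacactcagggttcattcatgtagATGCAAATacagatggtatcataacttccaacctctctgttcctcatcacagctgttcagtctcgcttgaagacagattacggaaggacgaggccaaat
AZGP1: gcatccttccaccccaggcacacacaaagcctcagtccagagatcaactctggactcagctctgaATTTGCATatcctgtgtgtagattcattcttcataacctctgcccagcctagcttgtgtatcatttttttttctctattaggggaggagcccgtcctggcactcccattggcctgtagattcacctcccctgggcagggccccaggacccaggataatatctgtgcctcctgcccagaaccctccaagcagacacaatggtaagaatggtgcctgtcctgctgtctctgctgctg
AZGP1 had 0.317, 0.15002 and 0.399 TPM in L191A libraries, against 4.39, 3.47 and 4.56 TPM in empty vector libraries (-1.99 ± 0.16, adjusted p = 7.1e-05). The L191A libraries were all under 1 TPM and none overlapped with empty vector.

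Among other tuft markers, VIL1, the actin-bundling protein villin, had 7.82, 7.77 and 8.77 TPM in L191A libraries, against 47.7, 57.5 and 53.6 TPM in empty vector libraries (-2.56 ± 0.11, adjusted p = 2.6e-06), and AVIL, the related advillin, had 148, 146 and 153 TPM in L191A libraries, against 262, 312 and 291 TPM in empty vector libraries (-0.94 ± 0.08, adjusted p = 9.1e-05). They were the only members called among the 7 tested gelsolin-type actin severers. KIT, the stem cell factor receptor, had 12.5, 13.1 and 11.2 TPM in L191A libraries, against 18.03, 25.03 and 23.1 TPM in empty vector libraries (-0.79 ± 0.14, adjusted p = 0.0062). That gap was small beside sgRosa, where L191A cells had 3.21, 14.8 and 12.4 TPM and empty vector cells 91.1, 89.5 and 108 TPM (difference between the guides 1.95, adjusted p = 8.5e-05). BIK, a pro-death BCL2 relative, had 2.65 against 15.3 TPM (-2.16), against -3.91 under sgRosa. SUCNR1, the succinate receptor of tuft cells, rose, with 20.7, 22.9 and 20.9 TPM in L191A libraries, against 8.71, 12.9 and 11.1 TPM in empty vector libraries (0.93 ± 0.15, adjusted p = 0.0032). LRMP, a tuft marker of high level, had 692 ± 6.99 TPM in L191A and 787 ± 34.7 TPM in empty vector libraries and was not called (adjusted p = 0.081), though it was called lower without empty vector replicate 2.

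Of 11 tested tuft transcription factors 5 fell and EHF rose (11.9% and 6.98% of all genes), and 4 fell without empty vector replicate 3 or any L191A library. SPIB, an ETS factor of tuft and lymphoid cells, had 5.47, 6.42 and 5.77 TPM in L191A libraries, against 36.5, 49.6 and 43.1 TPM in empty vector libraries (-2.67 ± 0.14, adjusted p = 6.6e-06). ASCL2, a basic helix-loop-helix factor, had 47.8, 45.1 and 39.4 TPM in L191A libraries, against 96.1, 138 and 108 TPM in empty vector libraries (-1.34 ± 0.13, adjusted p = 0.00027), GFI1B had 5.68 against 12.5 TPM (-0.998) and MYB 41.6 against 72.6 TPM (-0.79), and RUNX1 was the fifth (-0.61). EHF, an epithelial ETS factor, had 11.7 against 6.12 TPM (0.85, adjusted p = 0.0050). SPIB and ASCL2 fell further under sgPOU2F3 than under sgRosa (differences between the guides -1.35 and -0.67, adjusted p = 0.0011 and 0.023).

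Of 10 tested genes of eicosanoid synthesis 4 fell and none rose (11.9% and 6.98% of all genes). Without L191A replicate 1 or 2 the count of falls was 3, and without empty vector replicate 1 it was 5. PLA2G4A, the phospholipase that frees arachidonic acid, had 2.45, 2.22 and 1.74 TPM in L191A libraries, against 30.6, 28.3 and 34.6 TPM in empty vector libraries (-3.36 ± 0.14, adjusted p = 2.5e-06). PTGS1, cyclooxygenase 1 of tuft cells, had 1.67, 1.698 and 1.76 TPM in L191A libraries, against 12.3, 15.3 and 15.7 TPM in empty vector libraries (-2.51 ± 0.14, adjusted p = 9.4e-06), and PTGS2, the inducible cyclooxygenase 2, had 1.35, 1.36 and 1.07 TPM in L191A libraries, against 14.4, 20.02 and 17.5 TPM in empty vector libraries (-3.01 ± 0.16, adjusted p = 6.9e-06). The PLA2G4A and PTGS2 gaps were larger under sgRosa, at -4.22 and -4.48. PTGES2, a prostaglandin E synthase, also fell (-0.38). ALOX5, the 5-lipoxygenase of leukotriene synthesis, had 5.75 against 9.298 TPM and was not called (adjusted p = 0.077), though it was called lower without empty vector replicate 1.

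Other large falls were outside the tuft lists. ATP2A3, a calcium pump of the endoplasmic reticulum, had 6.89, 6.69 and 6.17 TPM in L191A libraries, against 59.7, 108 and 62.6 TPM in empty vector libraries (-3.31 ± 0.21, adjusted p = 1.7e-05), and empty vector replicate 2 again was the highest library. TUBB3, the neuronal beta-tubulin, had 8.796, 11.97 and 7.65 TPM in L191A libraries, against 93.4, 105 and 95.8 TPM in empty vector libraries (-3.26 ± 0.15, adjusted p = 3.3e-06), a gap of -1.302 under sgRosa (difference -1.96, adjusted p = 0.00020). KCNH3, a potassium channel, had 2.12 against 22.6 TPM (-2.91), and OLIG2, a basic helix-loop-helix factor of glia, had 1.64 against 16.5 TPM (-2.72). The entry TGIF2-C20orf24 is a readthrough of neighbouring genes, so its 4.01, 0 and 2.26 TPM in L191A and 8.401, 20.3 and 20.9 TPM in empty vector libraries may hold reads of either gene.

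Most of the NF-kB and inflammatory list fell. NF-kB factors are held in the cytoplasm by inhibitors and, once freed, drive cytokine genes as well as their own inhibitors. Of 26 tested members 22 fell and none rose, where 11.9% of all genes fell, and the list's median was -0.86 against -0.06 for all genes. Under sgRosa 1 member was lower in L191A cells and 8 were higher, where 26.1% and 8.75% of all genes were. The list's median there was 0.03, against -0.19 for all genes. The difference between the guides was called lower for 20 members, where 6.56% of all genes were called so. With 1 library left out at a time, 17 to 22 members fell, and 2 rose without empty vector replicate 2.

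Among cytokines, IL6, at chr7:22725884-22732002, had 1.47, 1.91 and 1.56 TPM in L191A libraries, against 20.9, 21.96 and 21.2 TPM in empty vector libraries (-3.08 ± 0.13, adjusted p = 2.5e-06). In sgRosa cells it was low in both lines, at 0.954, 0.738 and 1.696 TPM in L191A and 0.261, 0.255 and 0.165 TPM in empty vector cells, and the difference between the guides was -3.901 (adjusted p = 2.9e-06). CXCL8, a neutrophil chemokine, had 17.7, 12.96 and 13.9 TPM in L191A libraries, against 31.5, 32.6 and 33.8 TPM in empty vector libraries (-1.097 ± 0.13, adjusted p = 0.00059), while under sgRosa it was higher in L191A cells (1.61). IL32 had 5.396 against 24.1 TPM (-1.97) and TNF 0.588 against 4.65 TPM (-1.85). ICAM1, an adhesion molecule for leukocytes, had 3.9003, 3.297 and 3.24 TPM in L191A libraries, against 13.7, 16.5 and 12.8 TPM in empty vector libraries (-1.77 ± 0.14, adjusted p = 8.1e-05). IER3, an early response gene, had 34.1, 35.4 and 33.3 TPM in L191A libraries, against 123, 121 and 108 TPM in empty vector libraries (-1.75 ± 0.08, adjusted p = 3.6e-06), and under sgRosa the lines differed by -0.01 (adjusted p = 0.94).

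Feedback inhibitors were among the falls. TNFAIP3, the ubiquitin-editing inhibitor A20, had 3.79, 3.94 and 4.35 TPM in L191A libraries, against 13.6, 21.99 and 15.3 TPM in empty vector libraries (-1.81 ± 0.18, adjusted p = 0.00026), NFKBIA, the inhibitor IkB-alpha, had 130.02, 131 and 117 TPM in L191A libraries, against 210.6, 229 and 219.7 TPM in empty vector libraries (-0.80 ± 0.07, adjusted p = 0.00015), and RELB, a subunit of the alternative pathway, had 11.6, 11.2 and 10.9 TPM in L191A libraries, against 25.7, 37.5 and 31.005 TPM in empty vector libraries (-1.39 ± 0.14, adjusted p = 0.00028). The subunits RELA and NFKB1 had 55.4 against 70.3 TPM and 19.2 against 21.3 TPM and were not called (adjusted p = 0.092 and 0.50), and the other members not called were REL and NFKBIZ.

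Many of these promoters held the kB letters. Of the 22 members that fell, 18 had a RefSeq window, and 12 of the 18 (66.7%) held the kB letters GGNNTTTCC on either strand, against 6.69% of the windows of tested genes and 6.26% of all windows. The members were listed as NF-kB genes, so a kB match is a property of the list and no evidence on what moved them. Windows of 3 of them are shown from 5′ to 3′ on the plus strand, with the match in capitals: IL6 at chr7:22726950-22727249, CXCL8 at chr4:73740319-73740618 and ICAM1 at chr19:10270870-10271169, where the match is on the opposite strand.
IL6: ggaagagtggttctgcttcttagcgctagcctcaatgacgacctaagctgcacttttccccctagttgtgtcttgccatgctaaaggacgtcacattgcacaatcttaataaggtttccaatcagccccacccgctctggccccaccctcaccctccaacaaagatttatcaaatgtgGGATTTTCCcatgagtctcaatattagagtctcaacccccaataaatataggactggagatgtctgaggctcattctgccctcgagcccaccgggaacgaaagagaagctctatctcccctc
CXCL8: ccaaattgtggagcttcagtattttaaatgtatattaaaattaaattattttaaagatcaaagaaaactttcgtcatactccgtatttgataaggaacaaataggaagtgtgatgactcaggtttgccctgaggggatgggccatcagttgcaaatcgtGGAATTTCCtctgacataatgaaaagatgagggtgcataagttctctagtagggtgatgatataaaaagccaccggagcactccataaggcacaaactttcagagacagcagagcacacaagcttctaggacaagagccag
ICAM1: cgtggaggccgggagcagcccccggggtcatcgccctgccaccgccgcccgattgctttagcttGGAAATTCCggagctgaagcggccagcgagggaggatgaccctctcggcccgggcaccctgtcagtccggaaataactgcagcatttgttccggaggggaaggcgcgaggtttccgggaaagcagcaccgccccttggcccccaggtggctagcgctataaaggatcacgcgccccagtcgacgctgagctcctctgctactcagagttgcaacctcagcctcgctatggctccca

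**Figure D4:**
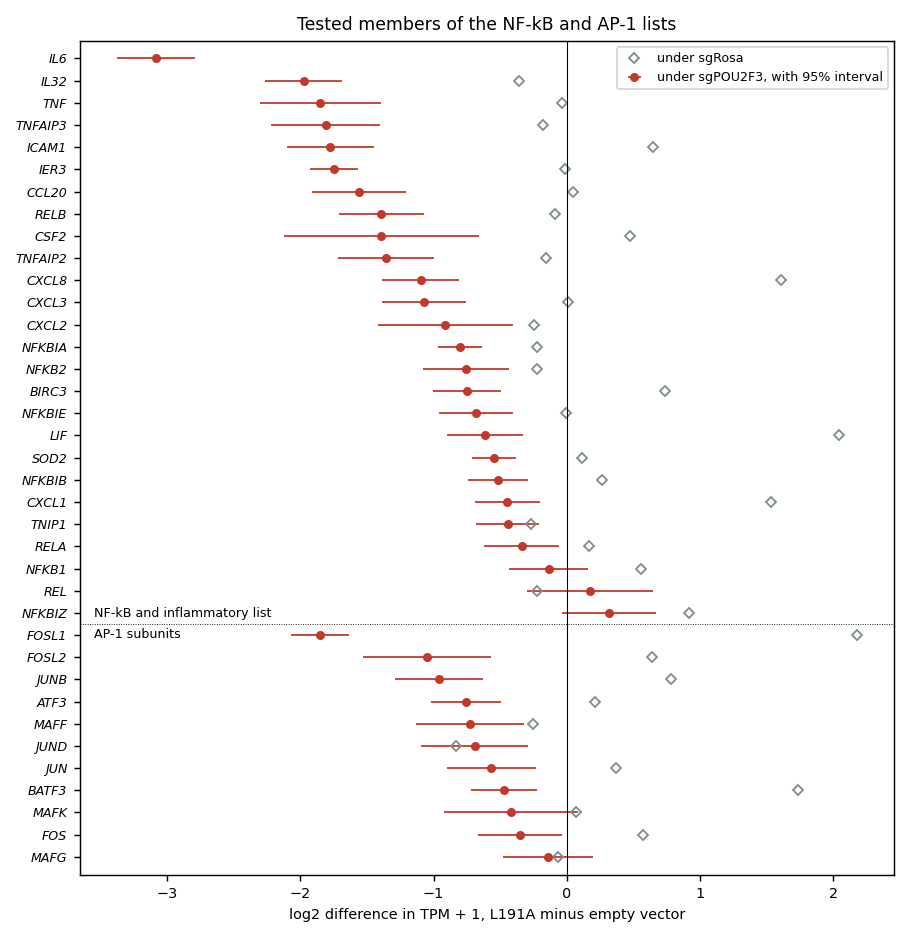
Log2 difference in TPM + 1, L191A minus empty vector (x axis), of the 26 tested members of the NF-kB and inflammatory list and the 11 tested AP-1 subunits, under sgPOU2F3 with the 95% interval (filled) and under sgRosa (open). IL6 is lowest at -3.08, NFKBIZ is the highest of its list at 0.32 with an interval that spans 0, and most sgRosa values lie to the right of those under sgPOU2F3.

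Of 11 tested subunits of AP-1, the factor assembled from JUN and FOS proteins, 8 fell and none rose, with a median of -0.69. Without L191A replicate 1, 2 or 3 the count was 4, 4 and 3. FOSL1 had 30.6, 26.7 and 25.4 TPM in L191A libraries, against 105, 107 and 94.2 TPM in empty vector libraries (-1.85 ± 0.10, adjusted p = 6.9e-06), while under sgRosa it was higher in L191A cells, 1.93, 5.66 and 7.68 TPM against 1.13, 0.801 and 0.236 TPM (difference between the guides -4.03, adjusted p = 4.8e-06). FOSL2 had 52.5, 54.2 and 52.5 TPM in L191A libraries, against 91.2, 168 and 88.6 TPM in empty vector libraries (-1.05 ± 0.21, adjusted p = 0.011), where empty vector replicate 2 was far above the other libraries and the call was lost without L191A replicate 3, and JUNB had 35.9, 41.3 and 32.5 TPM in L191A libraries, against 63.6, 89.8 and 64.6 TPM in empty vector libraries (-0.96 ± 0.15, adjusted p = 0.0026). JUN had 51.9 against 78.6 TPM (-0.57), a call lost without any 1 L191A library, and FOS, with 9.98 against 13.04 TPM, was not called (adjusted p = 0.11).

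Of 18 tested genes of MHC class I and antigen presentation 7 fell (11.9% of all genes), and B2M, the light chain of MHC class I, rose. Without L191A replicate 3 the count of falls was 3. HLA-C had 71.2, 69.7 and 69.6 TPM in L191A libraries, against 114, 112 and 106 TPM in empty vector libraries (-0.65 ± 0.07, adjusted p = 0.00033) and HLA-B had 1.91 against 4.72 TPM (-0.999), and reads of these near-identical genes can be shared. The HLA-B call was lost without L191A replicate 3. PSMB9, an immunoproteasome subunit, had 3.47 against 7.49 TPM (-0.94). B2M had 618, 583 and 586 TPM in L191A libraries, against 507, 444 and 487 TPM in empty vector libraries (0.31 ± 0.07, adjusted p = 0.018), and its call was lost when the GC trend was removed, under median-ratio scaling, and without empty vector replicate 3 or any L191A library. TAP1, a peptide transporter, had 14.4 against 18.4 TPM and was not called (adjusted p = 0.10).

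Of 21 tested interferon response genes 7 fell and 3 rose (11.9% and 6.98% of all genes), with a median of -0.19. IFI6 had 6.301, 6.11 and 3.02 TPM in L191A libraries, against 25.7, 26.1 and 31.3 TPM in empty vector libraries (-2.27 ± 0.23, adjusted p = 0.00026) and ISG15, a ubiquitin-like modifier, had 23.1, 22.5 and 23.4 TPM in L191A libraries, against 79.9, 60.2 and 67.6 TPM in empty vector libraries (-1.54 ± 0.11, adjusted p = 4.1e-05), and both were also lower in L191A cells under sgRosa (-1.42 and -1.32). IRF1, a transcription factor, had 19.2, 16.4 and 19.5 TPM in L191A libraries, against 41.8, 41.5 and 44.6 TPM in empty vector libraries (-1.18 ± 0.10, adjusted p = 0.00011), and under sgRosa its difference was 0.12 (difference between the guides -1.298, adjusted p = 0.00020). Members that rose included IFITM3 and DDX58, and 1 member rose and 4 or 5 fell without empty vector replicate 3 or any L191A library.

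Targets of YAP and TAZ, the coactivators that respond to cell shape and contact, moved both ways, 3 higher and 5 lower of 26 tested, with a median of 0.05, beside 6.98% and 11.9% of all genes. The count higher was 7 with the GC trend removed, under median-ratio scaling and under quantile normalization. Calls higher over all genes also rose in these settings, to 1219 of 12556, 1611 of 12836 and 1826 of 12836, from 896. Under sgRosa 13 were higher in L191A cells, where 8.75% of all genes were. ANKRD1 had 70.9, 66.2 and 67.7 TPM in L191A libraries, against 43.4, 40.4 and 35.5 TPM in empty vector libraries (0.77 ± 0.09, adjusted p = 0.00077) and IGFBP3, an IGF-binding protein, had 219.9, 215 and 204 TPM in L191A libraries, against 137, 137 and 131 TPM in empty vector libraries (0.65 ± 0.07, adjusted p = 0.00027), and AMOTL2 was the third riser (0.44). NUAK2, a kinase, had 20.8 against 51.4 TPM (-1.26), GADD45B, a stress response gene, 1.92 against 12.5 TPM (-2.205), and AXL also fell (-0.82). The classical targets differed little: CYR61 had 367, 356 and 284 TPM in L191A libraries, against 439.9, 487 and 405 TPM in empty vector libraries (-0.41, adjusted p = 0.034) and CTGF had 49.7, 47.1 and 43.99 TPM in L191A libraries, against 48.6, 56.2 and 44.9 TPM in empty vector libraries (-0.08, adjusted p = 0.60), and in sgRosa cells CYR61 was far lower, at 22.1, 34.1 and 50.02 TPM in L191A and 2.199, 2.56 and 2.13 TPM in empty vector cells. THBS1, thrombospondin, had 105 against 154 TPM (-0.54). The CYR61, THBS1 and AMOTL2 calls were lost without any 1 of the L191A libraries, those of CYR61 and AMOTL2 also without empty vector replicate 1, that of AMOTL2 without replicate 3, and that of CYR61 with the GC trend removed or under median-ratio scaling. There were 2 members higher without empty vector replicate 1 or 3 or any L191A library, and without empty vector replicate 2 the list had 11 members higher.

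Of 8 tested keratins 3 rose and 2 fell (6.98% and 11.9% of all genes), and 3 (KRT7, KRT19 and KRT81) were not called. Under sgRosa 7 keratins were higher in L191A cells, where 8.75% of all genes were. KRT17 had 196, 199 and 158 TPM in L191A libraries, against 524, 512 and 481 TPM in empty vector libraries (-1.46 ± 0.10, adjusted p = 2.5e-05), and KRT16, also of stressed and basal epithelium, had 3.77, 2.55 and 2.38 TPM in L191A libraries, against 19.6, 18.3 and 15.6 TPM in empty vector libraries (-2.28 ± 0.17, adjusted p = 5e-05). KRT8 and KRT18, the pair of simple epithelium, had 1544, 1649 and 1570 TPM in L191A libraries, against 1032, 940.3 and 993 TPM in empty vector libraries and 1205, 1217 and 1276 TPM in L191A libraries, against 744, 743 and 732 TPM in empty vector libraries (0.68 and 0.74). KRT17 was higher in L191A cells under sgRosa (3.13), a difference between the guides of -4.59 (adjusted p = 6.8e-07), and KRT80 was the third keratin that rose. Of 11 tested basal and squamous genes 5 fell (KRT16, KRT17, LAMB3, SFN and SERPINB5) and DSC2 rose, beside 11.9% and 6.98% of all genes. Without empty vector replicate 3 or L191A replicate 1 or 2, 4 fell and none rose, and none rose without empty vector replicate 1.

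Of 16 tested mesenchymal genes 7 fell and 3 rose (11.9% and 6.98% of all genes), with a median of -0.43. TGFBI, a matrix protein induced by TGF-beta, had 9.34, 9.28 and 9.001 TPM in L191A libraries, against 73.3, 73.05 and 66.4 TPM in empty vector libraries (-2.82 ± 0.09, adjusted p = 7.7e-07), while under sgRosa it was low in both lines, at 1.44, 2.13 and 3.09 TPM in L191A and 1.23, 0.996 and 1.54 TPM in empty vector cells. COL1A1, the collagen I chain, had 1.46, 1.43 and 1.47 TPM in L191A libraries, against 8.81, 13.8 and 8.28 TPM in empty vector libraries (-2.17 ± 0.19, adjusted p = 0.00013), LUM, the proteoglycan lumican, had 0.774 against 7.103 TPM (-2.196), and SNAI2, a repressor of epithelial genes, had 16.04, 13.6 and 12.05 TPM in L191A libraries, against 42.5, 39.7 and 37.97 TPM in empty vector libraries (-1.47 ± 0.12, adjusted p = 8.8e-05). VIM, the intermediate filament vimentin, had 176, 165 and 160.4 TPM in L191A libraries, against 111, 122 and 101 TPM in empty vector libraries (0.59 ± 0.08, adjusted p = 0.0020), and TWIST1, a helix-loop-helix factor, had 30.4, 34.1 and 27.01 TPM in L191A libraries, against 14.7, 21.3 and 16.6 TPM in empty vector libraries (0.78 ± 0.15, adjusted p = 0.0084). COL1A2 was the third that rose (1.39), against the fall of COL1A1.

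Of 14 tested genes of proteolysis and matrix remodelling 5 rose and 6 fell (6.98% and 11.9% of all genes), and 3 rose without L191A replicate 1 or 2. PLAU, urokinase, had 22.1, 21.1 and 20.6 TPM in L191A libraries, against 63.5, 67.8 and 64.7 TPM in empty vector libraries (-1.57 ± 0.08, adjusted p = 6.9e-06) and its receptor PLAUR had 11.3, 13.2 and 13.1 TPM in L191A libraries, against 47.6, 45.9 and 44.1 TPM in empty vector libraries (-1.795 ± 0.10, adjusted p = 9.4e-06). Matrix metalloproteinases were on both sides. MMP3, stromelysin 1, had 10.1, 8.15 and 7.27 TPM in L191A libraries, against 0.537, 0.643 and 0.774 TPM in empty vector libraries (2.52 ± 0.16, adjusted p = 1.8e-05) and MMP1, the interstitial collagenase, had 27.6, 25.04 and 22.6 TPM in L191A libraries, against 9.57, 8.44 and 8.11 TPM in empty vector libraries (1.42 ± 0.12, adjusted p = 0.00012), and both rose. MMP7, MMP13 and ADAMTS1 also rose, and falls included MMP9, PLAT and SERPINE2. Under sgRosa MMP3 and MMP1 were higher in L191A cells too (2.34 and 3.003).

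Of 8 tested clade B serpins, intracellular protease inhibitors, 6 fell and none rose, with a median of -0.80. SERPINB7 had 12.4, 12.2 and 12.6 TPM in L191A libraries, against 45.9, 40.8 and 44.4 TPM in empty vector libraries (-1.74 ± 0.10, adjusted p = 8.3e-06), SERPINB3 had 1.59 against 7.63 TPM (-1.77) and SERPINB9, the granzyme B inhibitor, had 11.7, 10.4 and 10.7 TPM in L191A libraries, against 27.3, 37.03 and 33.3 TPM in empty vector libraries (-1.48 ± 0.13, adjusted p = 0.00013). Of 12 tested integrins 5 rose and 3 fell (6.98% and 11.9% of all genes), but 3 rose without empty vector replicate 1 or 3 or any L191A library, and 7 without empty vector replicate 2. ITGAV had 105, 93.4 and 97.02 TPM in L191A libraries, against 51.1, 75.6 and 55.7 TPM in empty vector libraries (0.71 ± 0.14, adjusted p = 0.0086) and its partner ITGB6 had 2.41 against 0.5898 TPM (1.098), while ITGA3, a laminin receptor chain, had 11.7, 12.2 and 11.3 TPM in L191A libraries, against 33.6, 55.1 and 31.7 TPM in empty vector libraries (-1.65 ± 0.19, adjusted p = 0.00062). ITGA4, ITGB1 and ITGB5 were the other integrins that rose and ITGA5 and ITGB3 the others that fell.

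**Figure D5:**
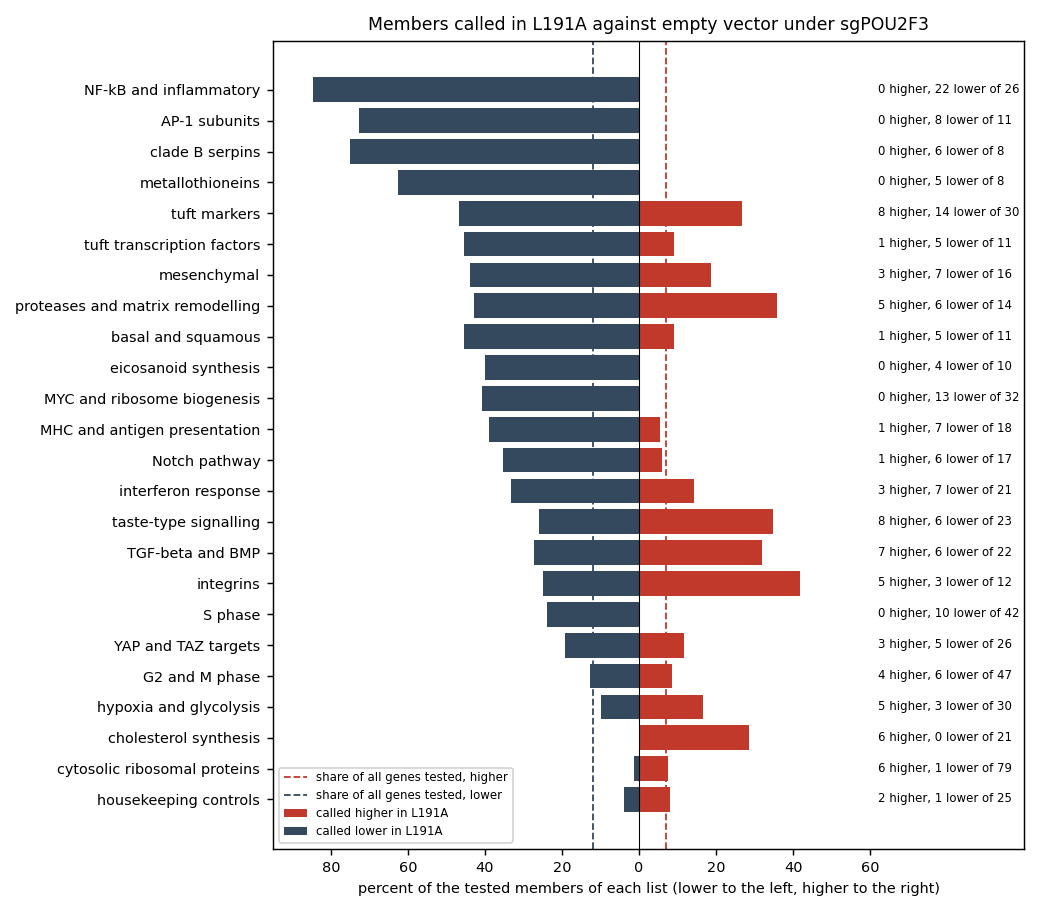
Share of the tested members of 24 gene lists called higher (right) or lower (left) in L191A against empty vector cells under sgPOU2F3, with the share of all genes tested, 6.98% higher and 11.9% lower, as dashed lines. NF-kB and AP-1 genes, clade B serpins and metallothioneins had called members only on the lower side. So did the eicosanoid, S phase, and MYC and ribosome biogenesis lists, while the taste, BMP and protease lists had many on both.

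Of 17 tested Notch pathway genes 6 fell and HEY1 rose (11.9% and 6.98% of all genes). LFNG, a glycosyltransferase that tunes Notch receptors, had 1.72, 2.21 and 1.75 TPM in L191A libraries, against 9.36, 16.7 and 10.8 TPM in empty vector libraries (-2.16 ± 0.20, adjusted p = 0.00020), the ligand DLL1 had 34.04, 35.97 and 33.8 TPM in L191A libraries, against 75.7, 127 and 77.6 TPM in empty vector libraries (-1.37 ± 0.18, adjusted p = 0.0012) and the inhibitory ligand DLL3, which is also a neuroendocrine marker, had 5.45, 6.61 and 4.63 TPM in L191A libraries, against 12.8, 12.99 and 13.9 TPM in empty vector libraries (-1.13 ± 0.14, adjusted p = 0.0011). HES6 had 55.2 against 113 TPM (-1.01) and the target HEY1 had 8.48, 7.16 and 8.08 TPM in L191A libraries, against 2.81, 4.001 and 3.36 TPM in empty vector libraries (1.03 ± 0.15, adjusted p = 0.0023). LFNG, DLL1, DLL3 and HEY1 differed in the same direction under sgRosa. Of 8 tested neuroendocrine genes DLL3 and INSM1 (-0.79) fell and none rose (11.9% and 6.98% of all genes), and 1 fell without L191A replicate 1 or 2.

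MYC, a growth-driving transcription factor, had 176, 183 and 169.99 TPM in L191A libraries, against 213, 246 and 224 TPM in empty vector libraries (-0.36 ± 0.07, adjusted p = 0.012), a call lost when the GC trend was removed and without L191A replicate 1 or 3. Of 32 tested genes of MYC and ribosome biogenesis 13 fell and none rose, but 2 fell with the GC trend removed, and 7 without any 1 L191A library, 9 without empty vector replicate 3 and 20 without empty vector replicate 2. Under sgRosa 24 of the 32 were higher in L191A cells, where 8.75% of all genes were. Of 42 tested S phase genes 10 fell (11.9% of all genes) and none rose, with 3 to 13 falls when 1 library was left out and 6 with the GC trend removed. Of 47 tested G2 and M phase genes 4 rose (TOP2A, ANLN, DLGAP5 and ASPM) and 6 fell, shares near the 6.98% and 11.9% of all genes. The list had 3 higher and 1 lower with the GC trend removed, 7 and 2 under median-ratio scaling, 8 and 4 under quantile normalization, and 9 and 8 without empty vector replicate 2. Over all 12836 genes 1611 were higher and 1635 lower under median-ratio scaling, and 1826 and 1752 under quantile normalization. Without empty vector replicate 3 or any L191A library 2 or 3 were higher and 1 or 2 lower.

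Of 24 tested p53 targets 8 fell and RRM2B rose, beside 11.9% and 6.98% of all genes, and 5 fell without L191A replicate 2 or 3. CDKN1A, the cell cycle inhibitor p21, had 6.72, 5.61 and 6.05 TPM in L191A libraries, against 10.2, 12.8 and 11.7 TPM in empty vector libraries (-0.82 ± 0.14, adjusted p = 0.0045) and BBC3, the death protein PUMA, had 3.29 against 8.75 TPM (-1.15). Among apoptosis regulators the survival gene BCL2 had 32.5, 29.3 and 31.8 TPM in L191A libraries, against 56.4, 98.5 and 66.3 TPM in empty vector libraries (-1.18 ± 0.18, adjusted p = 0.0026) and CASP8, an initiator caspase, had 55.5 against 38.2 TPM (0.53). Of 21 tested genes of cholesterol synthesis 6 rose and none fell, and in each fit without 1 L191A library none was called, while 1 rose without empty vector replicate 3 and 11 without replicate 2. Of 79 tested ribosomal protein genes 6 rose and 1 fell, with the rises near the share of all genes (6.98%), and none was called with the GC trend removed or under median-ratio scaling. The number that rose was 15 without empty vector replicate 1, 13 without replicate 2, 1 without replicate 3, at most 1 without any L191A library and 17 under quantile normalization. Under quantile normalization 1826 of all 12836 genes rose. ACTB and GAPDH, used as controls, had 4473 ± 718 TPM in L191A and 5417 ± 147 TPM in empty vector libraries and 7629 ± 419 TPM in L191A and 6295 ± 229 TPM in empty vector libraries and were not called (adjusted p = 0.13 and 0.053), though GAPDH was called higher without empty vector replicate 2.

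Metallothioneins, which bind zinc and copper, fell: of 8 tested 5 were lower and none higher, with a median of -0.53. MT1G had 131, 133 and 119.9 TPM in L191A libraries, against 278, 224 and 282 TPM in empty vector libraries (-1.02 ± 0.10, adjusted p = 0.00022) and MT1H had 13.2, 7.69 and 5.16 TPM in L191A libraries, against 34.7, 27.6 and 32.6 TPM in empty vector libraries (-1.83 ± 0.26, adjusted p = 0.0021), and the others were MT1A, MT1E and MT2A, close copies that may share reads. With the GC trend removed 3 fell, as they did without empty vector replicate 1 or 3.

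Markers of other cells that could be in a culture were measured too. Summed over the endothelial markers, none of which was tested, the level was 0.67 to 1.01 TPM in L191A and 0.82 to 1.13 TPM in empty vector libraries. Of the lymphoid and myeloid markers 6 of 13 were tested and 4 fell (11.9% of all genes), with a summed 24.2 to 30.0 TPM in L191A and 55.5 to 61.1 TPM in empty vector libraries. The T and B cell markers CD3E and MS4A1 were listed at 0 in all 6 libraries. Without L191A replicate 1 or 3 the count was 2. The largest fall was in CD79B, a B cell receptor chain, with 2.98, 3.59 and 2.72 TPM in L191A libraries, against 14.1, 11.7 and 10.7 TPM in empty vector libraries (-1.68 ± 0.15, adjusted p = 0.00015). Of markers of embryonic kidney cells, in which lentivirus is commonly packaged, 4 of 10 were tested and 1 fell, with a summed 62.5 to 67.9 TPM in L191A and 82.8 to 97.8 TPM in empty vector libraries, while PAX2, NEFL and NEFM were listed at 0. Of the airway and gut secretory markers only TFF3, a mucosal trefoil peptide, was tested, with 7.402, 10.9 and 9.06 TPM in L191A libraries, against 49.01, 41.8 and 52.7 TPM in empty vector libraries (-2.28 ± 0.15, adjusted p = 2.4e-05), and SCGB1A1 and SCGB3A1 were listed at 0.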

How the data were processed

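Per the labels' protocols, poly(A) libraries were prepared with the TruSeq v2 kit from TRIzol RNA. The values deposited by the authors are TPM, made with kallisto on hg38 per the submitters' processing notes, and each library sums to the same total. The kallisto version, transcript set and strandedness are not stated in the sources at hand. Of 19875 entries, 126 named no gene (99 description fragments and 27 date-like symbols, 1.60% to 2.37% of TPM) and were left out. All differences are on the log2(TPM + 1) scale, which shrinks the changes of genes at low TPM. limma 3.58.1 (R 4.3.3) was fitted to the 6 libraries with a variance trend, two-sided, with Benjamini-Hochberg adjustment over the 12836 genes that averaged 1 TPM or more in these libraries. The sgRosa comparison and the difference between the guides came from a fit of 11 libraries (both lines, both guides, without L191A sgRosa replicate 1). Errors of log2 differences are SE and those of TPM are SD, n = 3. No count test was possible on TPM.

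Members of the comparison, gene lists and tests were chosen with earlier results of these data known. Named by rule were the octamer family, the 12 largest rises and falls among called genes that reached 5 TPM and whose replicates did not overlap, up to 4 called members with the smallest p of each list, any member of lists of up to 15, and ACTB and GAPDH. A few genes that the rule names are not reported here. Other genes, such as TRPM5, PLCB2, the bitter receptors, TNF, CXCL8, RELA, CYR61, VIM and ID3, were chosen after their values were seen. Alternatives changed the pseudocount (0.1, 5), the filter, the scaling, the variance model, the libraries fitted and a replicate block, and removal of GC and length trends was added after seeing the data. Transcript GC content and length came from GENCODE release 29 and were found for 97.8% of genes tested, and promoter windows from RefSeq.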

Additional observations from a re-analysis of the deposited data

Results flagged for a closer look

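The effect of the L191A line against the empty vector line differed between the guides for 2367 genes (limma, difference of the 2 log2 differences). Of the 123 tested genes that were followed one by one, 74 were among them, 23 higher and 51 lower under sgPOU2F3 than under sgRosa. Over all genes tested the split ran the other way, with 1525 higher (11.9%) and 842 lower (6.56%). The followed genes were picked, so their split does not describe all genes. With L191A sgRosa replicate 1 kept, 37 of the 74 passed. For 17 of the 123 the 2 effects were of opposite sign and both were called. The values that follow are the log2 effect under sgPOU2F3 minus that under sgRosa. Each had an adjusted p under 0.05 in the limma fit without L191A sgRosa replicate 1. The genes that did not pass with that library kept are not marked among them.

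The largest negative differences among these genes included keratins, FOSL1 and IL6. KRT17 stood at -4.59, CYR61 at -4.09, FOSL1 at -4.03, IL6 at -3.901, TGFBI at -3.49, SERPINB7 at -3.35, THBS1 at -3.14, PLAU at -3.12 and KRT16 at -3.12. Among NF-kB and immune genes the difference was -2.71 for CXCL8, -2.42 for ICAM1, -1.81 for TNF, -1.78 for PSMB9, -1.74 for IER3, -1.63 for TNFAIP3, -1.62 for IL32, -1.299 for RELB, -1.298 for IRF1, -1.15 for HLA-B, -1.02 for HLA-C, -0.99 for TAP1, -0.69 for NFKB1 and -0.57 for NFKBIA. Among AP-1 and YAP genes it was -1.74 for JUNB, -1.68 for FOSL2, -0.93 for JUN, -0.92 for FOS, -2.701 for AMOTL2, -2.56 for GADD45B, -2.44 for NUAK2, -2.25 for IGFBP3, -1.99 for ANKRD1 and -0.82 for CTGF. Among matrix, adhesion and serpin genes it was -2.797 for ITGA3, -2.22 for LUM, -2.19 for SERPINB3, -2.03 for VIM, -1.905 for SNAI2, -1.62 for INHBA, -1.58 for MMP1, -1.53 for COL1A1, -1.37 for PLAUR and -1.21 for SERPINB9. The remaining negative values were -2.24 for ERP27, -1.96 for TUBB3, -1.43 for MT1G, -1.35 for SPIB, -0.91 for HES6, -0.76 for CDKN1A, -0.67 for ASCL2 and -0.44 for MYC.

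Positive differences among these followed genes were mainly in tuft and taste genes. They were 1.95 for KIT, 1.74 for BIK, 1.502 for AZGP1, 1.47 for PTGS2, 1.47 for RGS21, 1.41 for TAS2R31, 1.34 for RGS13, 1.17 for PLCB2, 1.13 for GNG13, 0.86 for PLA2G4A, 0.84 for TAS1R3, 0.83 for GNAT3, 0.76 for TAS2R38, 0.74 for TAS2R5, 0.67 for VIL1 and 0.56 for LRMP. Among the others were 2.18 for RBP2, 1.92 for FAM20A, 0.99 for COLCA2, 0.88 for BCL2, 0.83 for POU2F3, 0.83 for TWIST1 and 0.62 for KRT18.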

How the results depend on the processing

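Of the 112 called genes that were followed one by one, 83 kept their direction and call in every alternative that tested them, and none reversed. Not every alternative tested them all: the filter at a mean of 5 TPM kept 110 of the 123 followed genes. The fit of all 18 libraries called 542 genes (231 higher, 311 lower). Calls higher in L191A cells numbered 1611 under median-ratio scaling, 1826 under quantile normalization and 1716 with the length trend removed, against 896. With the GC trend removed 2599 genes were called (1219 higher, 1380 lower), 1733 of them among the 2428. With L191A sgRosa replicate 1 kept, the sgRosa comparison called 2875 genes and the difference between the guides 292. Leaving out each library in turn gave 1046 to 4660 calls (446 to 2389 higher, 578 to 2271 lower), 1562 to 5686 under sgRosa and 667 to 4094 for the difference between the guides. Among the 112, the call of AMOTL2, B2M, CYR61, FOSL2, HLA-B, ITPR3, JUN, MYC, SMAD6, TAS2R5 or THBS1 was lost without at least 1 library. Some genes named only as members of a list also lost theirs, as the counts given with those lists show. Differences not called changed sign for CTGF (0.0081 under quantile normalization, -0.15 to 0.0046 with 1 library left out) and POU2F1 (-0.034 with the length trend removed, -0.016 to 0.28 with 1 library left out). The cause was not tested. Replicate numbers did not pair the samples, with correlations of same-numbered libraries of 0.0078, 0.056 and 0.15, and a replicate block gave 2154 calls, 2014 of them among the 2428. Depth is unknown, so counting error at low TPM could not be set.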
